A study of Mus musculus with 10 samples.

Results

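The IFIT genes encode interferon-induced proteins with tetratricopeptide repeats, a family held at low levels in resting cells and raised strongly when a cell senses virus or bacterial products. The 6 mouse members measured were Ifit1, Ifit1bl1, Ifit1bl2, Ifit2, Ifit3 and Ifit3b, taken by gene name from 43432 Ensembl genes, and all 6 passed the count filter that left 14172 genes for testing. The cells were RAW264.7, an established mouse macrophage line transformed by a murine leukaemia virus. The conditions were 5, with 2 libraries each. They were DMSO (the vehicle, at 0.5%) without lipopolysaccharide (LPS, the outer membrane glycolipid of Gram-negative bacteria), DMSO + LPS, and compound 1, the 7(E)-9-keto-hexadec-7-enoic fatty acid, which marine cyanobacteria contain, at 3.2, 10 or 32 µM, each with LPS. Compound or vehicle was given 1 h before LPS at 1 µg/mL, and RNA was collected at 12 h. No library had compound without LPS, so an effect of compound 1 on resting IFIT levels was not measured.

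IFIT1 binds the capped end of RNA that lacks the ribose methylation normally placed there by the host, and thereby keeps such RNA from being translated. In human cells IFIT2 and IFIT3 form complexes with IFIT1, and several IFIT proteins also bind the translation initiation factor eIF3. In macrophages LPS is detected by TLR4, which signals through the adaptor TRIF (Ticam1) and the transcription factor IRF3 to interferon beta. Secreted interferon then acts on its receptor (Ifnar1, Ifnar2) and the kinases Jak1 and Tyk2 to activate transcription factors, STAT2 and its partner IRF9 among them, that bind interferon-stimulated response elements in the promoters of the IFIT genes and many others.

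The family lies in 1 cluster on chromosome 19 between positions 34550694 and 34650009 of GRCm38 (mm10), a span of 99316 bp, in the order Ifit2, Ifit3, Ifit1bl1, Ifit3b, Ifit1bl2 and Ifit1. Ifit1bl1 and Ifit1bl2 are on the minus strand and the other 4 on the plus strand, and all 6 are annotated as protein coding. Ifit1 (ENSMUSG00000034459, 34640871 to 34650009) and Ifit1bl2 (ENSMUSG00000067297, 34617049 to 34640743) point away from each other with starts 128 bp apart. Ifit2 (ENSMUSG00000045932) covers 34550694 to 34576419, Ifit3 (ENSMUSG00000074896) 34583531 to 34588731, Ifit1bl1 (ENSMUSG00000079339) 34592891 to 34601956, and Ifit3b (ENSMUSG00000062488) 34607970 to 34613401.

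The upstream sequences of the members are shown because the core letters of the interferon-stimulated response element lie there in 5 of the 6 and because some members share them. They are RefSeq sequences of GRCm38.p6, written 5′ to 3′ on the strand of the named gene and ending before the first annotated exon. The capitals mark matches on either strand to GAAANNGAAA, the core of the interferon-stimulated response element, with 2 free bases in the middle. The stretch printed for Ifit1 (chr19:34640744-34640870, plus strand) is the whole 127 bases between its start and that of Ifit1bl2, so the same bases lie upstream of both genes. Those of Ifit3 (chr19:34583279-34583528, plus strand), Ifit3b (chr19:34607707-34607956, plus strand), Ifit1bl1 (chr19:34601969-34602218, minus strand) and Ifit2 (chr19:34550444-34550693, plus strand) are 250 bases each.
Ifit1: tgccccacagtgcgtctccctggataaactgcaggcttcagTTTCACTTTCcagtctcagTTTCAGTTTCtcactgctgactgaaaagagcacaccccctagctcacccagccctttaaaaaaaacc
Ifit3: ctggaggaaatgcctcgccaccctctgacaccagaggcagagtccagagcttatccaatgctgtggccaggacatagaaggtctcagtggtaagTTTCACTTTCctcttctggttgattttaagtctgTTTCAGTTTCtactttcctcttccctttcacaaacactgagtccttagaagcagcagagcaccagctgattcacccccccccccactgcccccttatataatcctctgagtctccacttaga
Ifit3b: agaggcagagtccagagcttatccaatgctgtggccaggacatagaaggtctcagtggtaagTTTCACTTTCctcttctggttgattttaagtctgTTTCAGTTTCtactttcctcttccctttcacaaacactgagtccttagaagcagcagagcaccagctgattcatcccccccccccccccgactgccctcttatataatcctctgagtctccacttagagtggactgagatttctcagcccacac
Ifit1bl1: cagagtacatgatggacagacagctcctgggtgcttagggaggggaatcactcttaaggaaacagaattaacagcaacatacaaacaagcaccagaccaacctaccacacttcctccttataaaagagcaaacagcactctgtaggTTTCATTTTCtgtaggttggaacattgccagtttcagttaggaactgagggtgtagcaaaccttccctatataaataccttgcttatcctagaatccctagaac
Ifit2: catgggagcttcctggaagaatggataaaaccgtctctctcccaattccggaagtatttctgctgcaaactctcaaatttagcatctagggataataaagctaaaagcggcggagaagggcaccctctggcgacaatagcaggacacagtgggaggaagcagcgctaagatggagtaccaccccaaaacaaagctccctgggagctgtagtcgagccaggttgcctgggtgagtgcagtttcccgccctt

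Ifit1 and Ifit1bl2 share 1 pair of matches, read in opposite directions by the 2 genes. Over the full promoter windows, from 250 bases before to 50 after the start, Ifit3 and Ifit3b were identical at 258 of 260 aligned bases and each held 2 matches, GAAAGTGAAA and GAAACTGAAA. The first of these lay 156 bases before the RefSeq start of Ifit3 and 188 bases before that of Ifit3b. Ifit1bl1 had 1 match, GAAAATGAAA, at 104 bases before its start, and its second annotated start had 1 match as well. Neither of the annotated starts of Ifit2 had a match in its window, which says only that these letters are absent from those 300 bases. Of 32817 promoter windows in the table, 1126 (3.43%) held at least 1 match and 73 (0.222%) held 2 or more. A match is a description of sequence, and binding was not measured here.

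**Figure D1:**
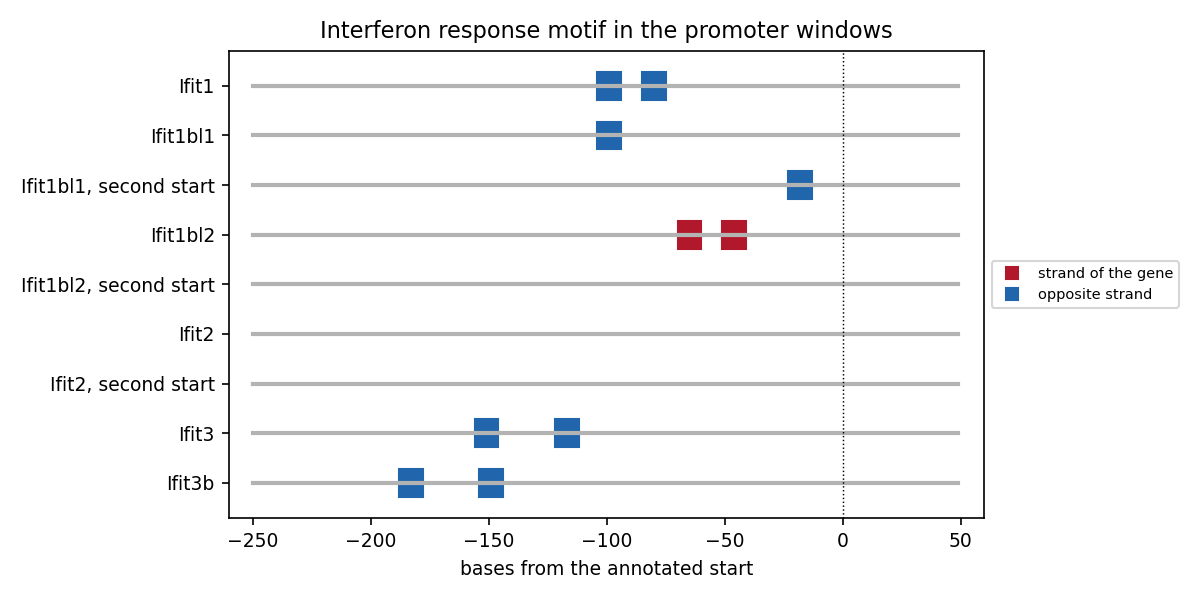
Each grey line is a promoter window of an IFIT gene from 250 bases before to 49 after the first base (0, dotted line), and each box a match to the interferon response motif, coloured by strand. Ifit1, Ifit1bl2, Ifit3 and Ifit3b have 2 boxes each at a first annotated start, Ifit1bl1 has 1 at each of its starts, and Ifit2 has none.

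The libraries held between 45966803 and 58976377 counts. All 8 macrophage markers checked (among them Cd68, Csf1r and Adgre1) were expressed in every library, with a summed level between 7549 and 11542 CPM (counts per 1000000 library counts), lowest at 32 µM. T cell markers summed to at most 0.064 CPM and B cell markers to at most 0.354 CPM. The neutrophil list (Ly6g and S100a8) moved with LPS and with 32 µM as the family did, at 0.581 to 1.02 CPM in DMSO, 6.28 to 6.48 in DMSO + LPS, 2.83 to 6.40 at 10 µM and 1.46 to 2.39 at 32 µM, with Ly6g at no more than 0.838 CPM in any library, and its part in the results was not tested. Fibroblast markers reached 2.94 CPM in 1 library at 10 µM and stayed at or below 0.367 CPM in the other conditions. The 3 epithelial markers Epcam, Krt8 and Krt18 summed to 33.9 CPM in replicate 1 at 10 µM and 5.24 CPM in replicate 1 at 3.2 µM, and to at most 0.085 CPM in the other 8 libraries. Ribosomal RNA genes took 2.83% of replicate 2 at 32 µM and 0.153% to 0.333% of the other libraries. Without replicate 2 at 32 µM the same number of members, 5, was called lower there (log2 fold change −2.12 for Ifit1 and −2.08 for Ifit3), and without replicate 1 at 3.2 µM none was called at that dose. The calls at 10 µM are given below with and without its replicate 1. What else these libraries contribute was not tested.

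LPS raised all 6 members, by between 11.7-fold for Ifit2 and 44.0-fold for Ifit3b. Across all genes, 14.6% of those tested were called higher in the same comparison, where called means a change of at least 1.5-fold with a Benjamini-Hochberg adjusted p below 0.05 in edgeR's quasi-likelihood test. The median log2 fold change was 4.86 over the 6 members and 0.0026 over all genes tested. In a bulk sample, fewer cells that transcribe a gene and less RNA per cell cannot be told apart, which holds for each change described here.

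Ifit1, the cap-binding member, was at 14.9 and 13.9 CPM in the DMSO libraries and at 383 and 371 CPM with LPS. Its log2 fold change was 4.71 (SE 0.089, edgeR adjusted p = 7.60e-09). Both LPS libraries lay far above both resting libraries. Ifit1bl1, an Ifit1-like gene, rose from 0.612 and 0.705 CPM to 13.9 and 13.3 CPM, a log2 fold change of 4.37 (SE 0.11, edgeR adjusted p = 2.35e-08). Ifit1bl2, the other Ifit1-like gene, rose from 0.425 and 0.106 CPM to 8.63 and 8.69 CPM, a 32.1-fold rise (SE of the log2 fold change 0.83, edgeR adjusted p = 0.00134). Without replicate 1 of DMSO the log2 fold change was 6.32 and without replicate 2 it was 4.32. The resting libraries held 25 and 6 counts, and the SE was the largest of the family.

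Ifit2, which binds RNA, was at 10.5 and 12.1 CPM at rest and at 134 and 130 CPM with LPS, a log2 fold change of 3.55 (SE 0.11, edgeR adjusted p = 1.01e-07). Ifit3, another member with tetratricopeptide repeats, went from 4.08 and 4.26 CPM to 145 and 143 CPM, a log2 fold change of 5.11 (SE 0.053, edgeR adjusted p = 6.63e-10). Ifit3b, its close copy, went from 2.38 and 2.08 CPM to 99.3 and 97.1 CPM, a log2 fold change of 5.46 (SE 0.079, edgeR adjusted p = 2.22e-09). For each of these 3 genes the lower LPS library was more than 10-fold above the higher resting library.

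**Figure D2:**
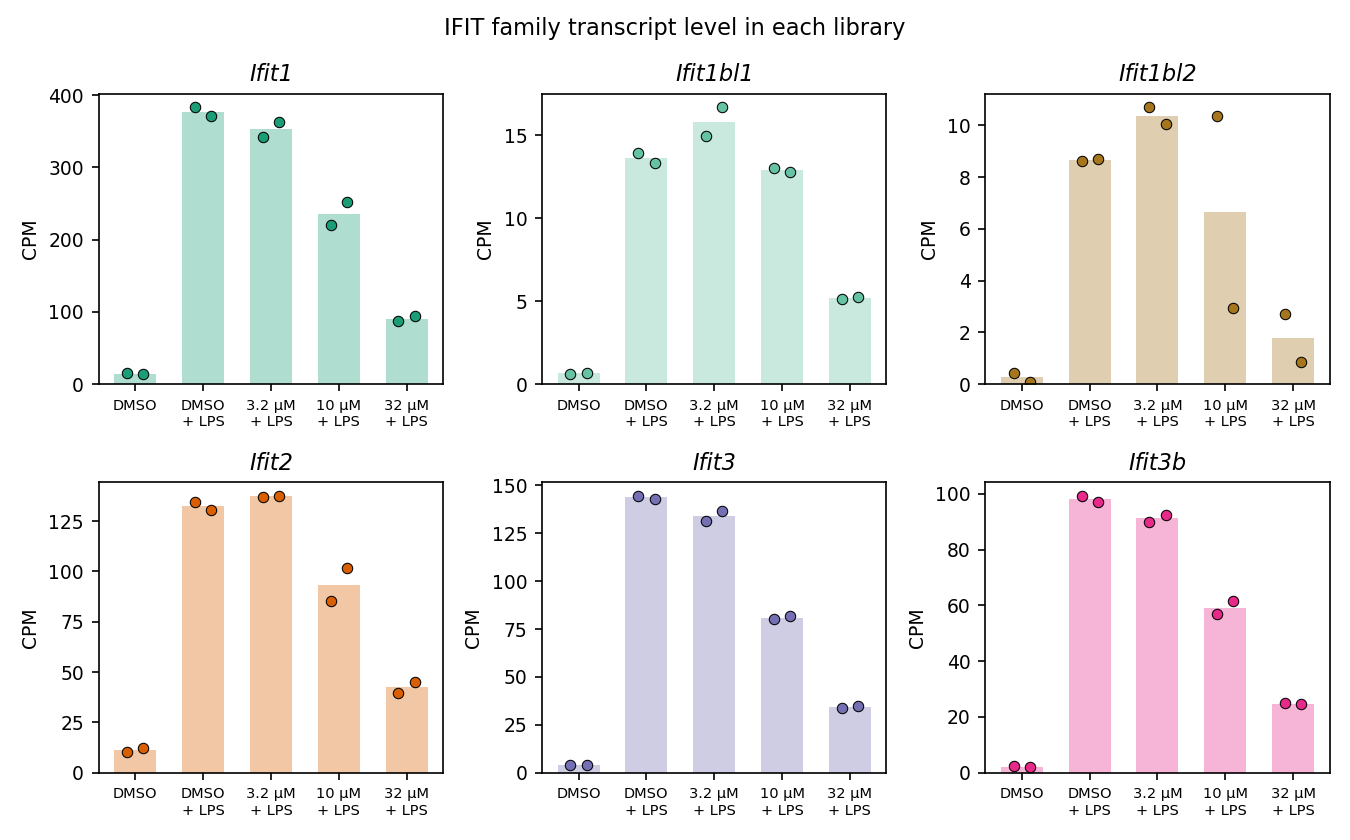
Each panel plots 1 IFIT gene as CPM on a linear axis that starts at 0, with points for the 2 libraries of a condition and bars for their mean. Every member is lowest in DMSO, and Ifit1bl2 alone has a wide gap between its libraries, 10.4 against 2.96 CPM at 10 µM.

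The make-up of the family shifted with LPS. Ifit2 held 31.9% and 36.6% of all IFIT counts in the resting libraries and 17.2% and 17.1% with LPS. Ifit1 took 45.3% and 41.9% at rest and 48.9% and 48.6% with LPS, and Ifit3b went from 7.24% and 6.27% to 12.7% in both. All 6 together made up 0.0037% of a resting library and 0.0761% and 0.0741% of the LPS libraries.

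Levels of different genes were compared per kilobase of the longest annotated transcript. In DMSO + LPS, Ifit1 was at 142 ± 3.18 CPM per kb (SD, n = 2), Ifit3 at 82.4 ± 0.627, Ifit3b at 49.1 ± 0.783, Ifit2 at 34.7 ± 0.744, Ifit1bl1 at 6.20 ± 0.188 and Ifit1bl2 at 2.57 ± 0.013. No neighbours in this order overlapped between their libraries. The place of Ifit2 depends on the length used: its transcripts are 3818 bases at the longest and 2259 at the median, and with the median length it stood at 58.6 CPM per kb, above Ifit3b. In DMSO the order was Ifit1 (5.42 ± 0.269 CPM per kb; SD, n = 2), Ifit2 (2.96 ± 0.302), Ifit3 (2.39 ± 0.074), Ifit3b (1.11 ± 0.107), Ifit1bl1 (0.299 ± 0.03) and Ifit1bl2 (0.079 ± 0.067). At 32 µM it was again Ifit1 (34.2 ± 2.02), Ifit3 (19.7 ± 0.283), Ifit3b (12.4 ± 0.081), Ifit2 (11.1 ± 0.98), Ifit1bl1 (2.37 ± 0.044) and Ifit1bl2 (0.529 ± 0.385). Neighbours in these orders did not overlap between their libraries either, but with the median length the libraries of Ifit2 overlapped those of Ifit1 in DMSO and those of Ifit3 at 32 µM.

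Compound 1 at 32 µM lowered 5 of the 6 members under LPS, against 2.91% of all genes called lower. The called changes lay between 2.61-fold lower for Ifit1bl1 and 4.19-fold lower for Ifit3. The median log2 fold change was −2.02 over the 6 members and 0.0082 over all genes tested. The comparisons of the 3 doses with DMSO + LPS share the same 2 control libraries.

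Ifit1 stood at 87.1 and 94.7 CPM at 32 µM, against 383 and 371 CPM without compound. Its log2 fold change of −2.05 was several times the gap between replicates, and each 32 µM library was at 23.1% or 25.1% of the DMSO + LPS mean. Ifit3 fell to 34.0 and 34.7 CPM, which is 23.6% and 24.1% of that mean, and Ifit3b to 24.8 and 24.6 CPM, 25.3% and 25.1%. No 32 µM library of these 3 genes reached a DMSO + LPS library, and whether the 3 fractions differ was not tested.

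Ifit2 fell to 39.8 and 45.1 CPM at 32 µM, or 30.0% and 34.0% of the DMSO + LPS mean, with a log2 fold change of −1.64 (SE 0.10, edgeR adjusted p = 3.99e-05). Ifit1bl1 fell to 5.15 and 5.29 CPM, or 37.7% and 38.7%, with a log2 fold change of −1.39 (SE 0.087, edgeR adjusted p = 3.81e-05). In both genes every 32 µM library was below every DMSO + LPS library, and the remaining fraction was above that of Ifit1, Ifit3 and Ifit3b in each library. Ifit1bl2 was at 2.70 and 0.862 CPM, from 132 and 39 counts, with a log2 fold change of −2.27 that was not called (SE 0.68, edgeR adjusted p = 0.0835). Both of its 32 µM libraries were below both of its DMSO + LPS libraries, and one was more than 3-fold the other. The log2 fold change of Ifit1bl2 ranged from −3.32 to −1.68 over the alternatives. Over 11 alternatives its edgeR or DESeq2 adjusted p ranged from 0.0045 to 0.329, and it was called under 3 of them.

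The members stayed above resting cells at 32 µM, where all 6 were called higher than in DMSO against 13.9% of all genes. Ifit3b remained 11.1-fold above DMSO (log2 fold change 3.47, SE 0.076, edgeR adjusted p = 1.86e-08), Ifit3 8.22-fold, Ifit1bl1 7.90-fold, Ifit1 6.31-fold and Ifit2 3.75-fold. Ifit1bl2 was 6.65-fold above DMSO (SE of the log2 fold change 0.87, edgeR adjusted p = 0.0302), and this call was lost without replicate 2 of DMSO (log2 fold change 2.04, adjusted p = 0.163), without replicate 1 at 32 µM (1.68, adjusted p = 0.232) and with the 4 compared libraries fitted alone (2.72, adjusted p = 0.0556). Without replicate 1 of DMSO its log2 fold change was 4.05, and without replicate 2 at 32 µM it was 3.32, against 2.73 with all libraries. Expressed as the part of the LPS-induced rise that was left, Ifit1 kept 20.0% and 22.1%, Ifit3 21.3% and 21.8%, Ifit3b 23.6% and 23.3%, and Ifit2 23.5% and 27.9%. Ifit1bl1 kept 34.6% and 35.6%, and Ifit1bl2 29.0% and 7.12%, the widest gap of the family.

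**Figure D3:**
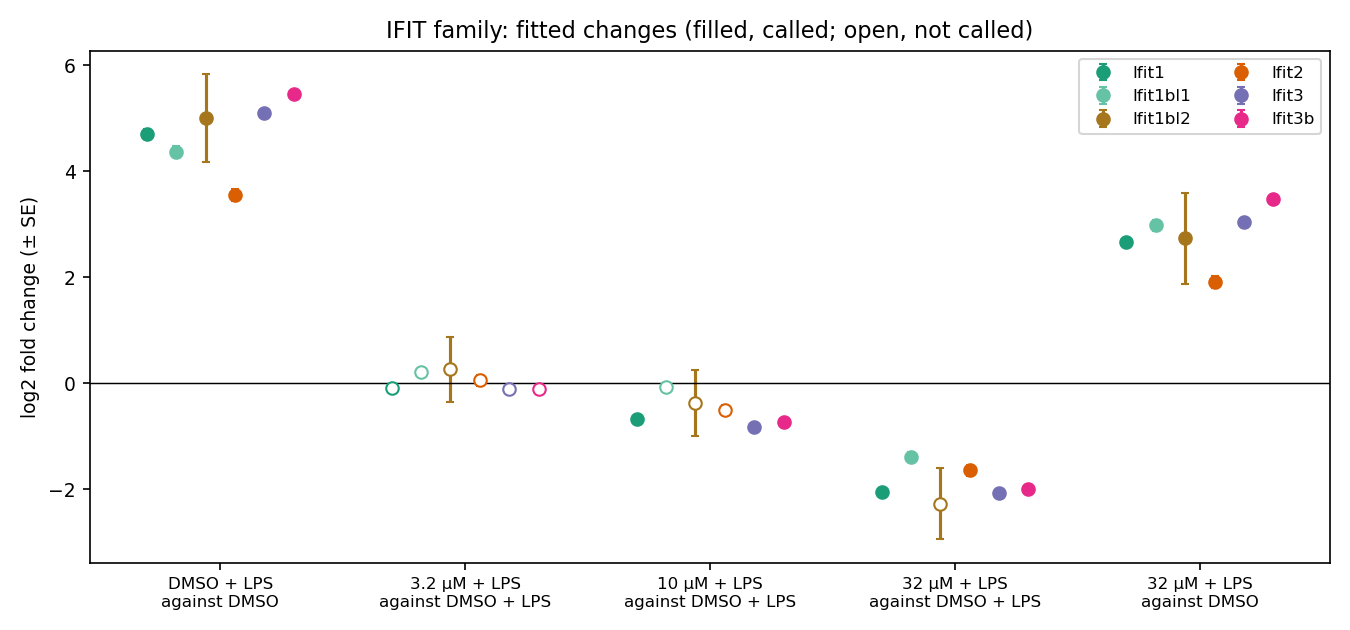
Points are fitted log2 fold changes of the 6 IFIT genes in 5 comparisons, with bars of ± SE, filled where called and open where not. The changes with LPS and with 32 µM + LPS against DMSO are all positive, those at 32 µM against DMSO + LPS are all negative, and Ifit1bl2 has the widest bars.

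At 10 µM, 3 members were called lower than in DMSO + LPS (Ifit1, Ifit3 and Ifit3b), against 0.579% of all genes. The median log2 fold change was −0.59 over the 6 members and 0.016 over all genes tested. Ifit3 was at 80.2 and 81.7 CPM, 55.8% and 56.8% of the DMSO + LPS mean. Ifit1 was at 221 and 252 CPM (log2 fold change −0.68, SE 0.076, edgeR adjusted p = 0.00408), and Ifit3b at 57.0 and 61.5 CPM (log2 fold change −0.73, SE 0.062, edgeR adjusted p = 0.0016). Each of these libraries lay below the DMSO + LPS pair of the same gene and above its 32 µM pair.

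Ifit2 at 10 µM was at 85.1 and 102 CPM, a log2 fold change of −0.50 (SE 0.10, edgeR adjusted p = 0.0449) that is under the 1.5-fold cutoff. Ifit1bl1 was at 13.0 and 12.8 CPM, 95.4% and 93.9% of the DMSO + LPS mean, with a log2 fold change of −0.08 (SE 0.083, edgeR adjusted p = 0.851). Ifit1bl2 split, with 10.4 CPM in replicate 1 and 2.96 CPM in replicate 2, and its log2 fold change was −0.38 (SE 0.62, edgeR adjusted p = 0.927). Whether the members differ in their response at 10 µM was not tested.

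Replicate 1 at 10 µM is the library with the most epithelial transcripts, and it was the lower of the pair for Ifit1, Ifit2, Ifit3 and Ifit3b. Without it Ifit3 and Ifit3b were still called, while Ifit1 moved to a log2 fold change of −0.58, just under the cutoff (edgeR adjusted p = 0.0158). Without it and replicate 1 at 3.2 µM, an alternative added after seeing the data, 2 members were called at 10 µM. Ifit3 then had a log2 fold change of −0.82 (edgeR adjusted p = 0.017) and Ifit3b one of −0.68 (edgeR adjusted p = 0.046), and the 5 members called at 32 µM were still 5. The call of Ifit1 held under 8 of 12 alternatives, and was also lost without replicate 1 of DMSO + LPS (edgeR adjusted p = 0.059) and with the 4 compared libraries fitted alone (edgeR adjusted p = 0.0827). Without replicate 2 at 10 µM Ifit2 was called as well (log2 fold change −0.66, edgeR adjusted p = 0.015).

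At 3.2 µM no member was called, nor was any other gene (0% of those tested), with 600 genes at an unadjusted p under 0.05 in edgeR and 0 members called by DESeq2. Ifit1 was at 343 and 363 CPM, Ifit3 at 131 and 136 CPM and Ifit3b at 89.9 and 92.6 CPM, all below both DMSO + LPS libraries of the same gene. Their log2 fold changes were −0.10 (SE 0.076), −0.10 (SE 0.043) and −0.11 (SE 0.061), each with an edgeR adjusted p of 0.999. Ifit2 was at 137 and 138 CPM and Ifit1bl1 at 14.9 and 16.7 CPM, both above their DMSO + LPS pairs, with log2 fold changes of 0.05 (SE 0.10) and 0.21 (SE 0.083). Ifit1bl2 was at 10.7 and 10.0 CPM, also above its DMSO + LPS pair, with a log2 fold change of 0.26 (SE 0.62).

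Between neighbouring doses, 5 members were called lower at 32 than at 10 µM, against 1.15% of all genes, with log2 fold changes between −1.14 for Ifit2 and −1.38 for Ifit1. Fitted on the 4 libraries of these doses alone, 1 member was called for this step (Ifit3, edgeR adjusted p = 0.0495), and the adjusted p of the other 4 lay between 0.0585 for Ifit3b and 0.0848 for Ifit2. Ifit1bl1, at 110% and 122% of its DMSO + LPS mean at 3.2 µM and 95.4% and 93.9% at 10 µM, had a log2 fold change of −1.31 for this step (SE 0.087, edgeR adjusted p = 2.18e-04). That of Ifit1bl2 was −1.90 (SE 0.68, edgeR adjusted p = 0.289) and was not called. From 3.2 to 10 µM, Ifit3 (−0.72, SE 0.043, edgeR adjusted p = 6.45e-04) and Ifit3b (−0.62, SE 0.062, edgeR adjusted p = 0.0064) were called lower, against 0.183% of all genes. The count from 3.2 to 10 µM was 0 with the 4 libraries of these doses fitted alone, and it changed with libraries left out. Over the alternatives the log2 fold change ranged from −0.76 to −0.70 for Ifit3 and from −0.69 to −0.57 for Ifit3b.

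A trend over the dose order was tested by an exact two-sided permutation test of the Jonckheere-Terpstra statistic, with 2520 arrangements of the 8 LPS libraries. Ifit1, Ifit3 and Ifit3b fell at the smallest p that the permutations can give, 0.000794 (adjusted p = 0.0193 over all genes tested), as did 2.58% of all genes. With any 1 library left out, the smallest p was 0.00317. These 3 had to reach it, since their libraries were fully ordered by dose. The exact test's adjusted p of the 3 was then between 0.056 and 0.0652. For Ifit2 and Ifit1bl1 the exact p was 0.0524 (adjusted p = 0.239), and for Ifit1bl2 0.26 (adjusted p = 0.582). Ifit2, Ifit1bl1 and Ifit1bl2 each had both 3.2 µM libraries above the DMSO + LPS libraries, so the order of doses was not followed throughout.

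**Figure D4:**
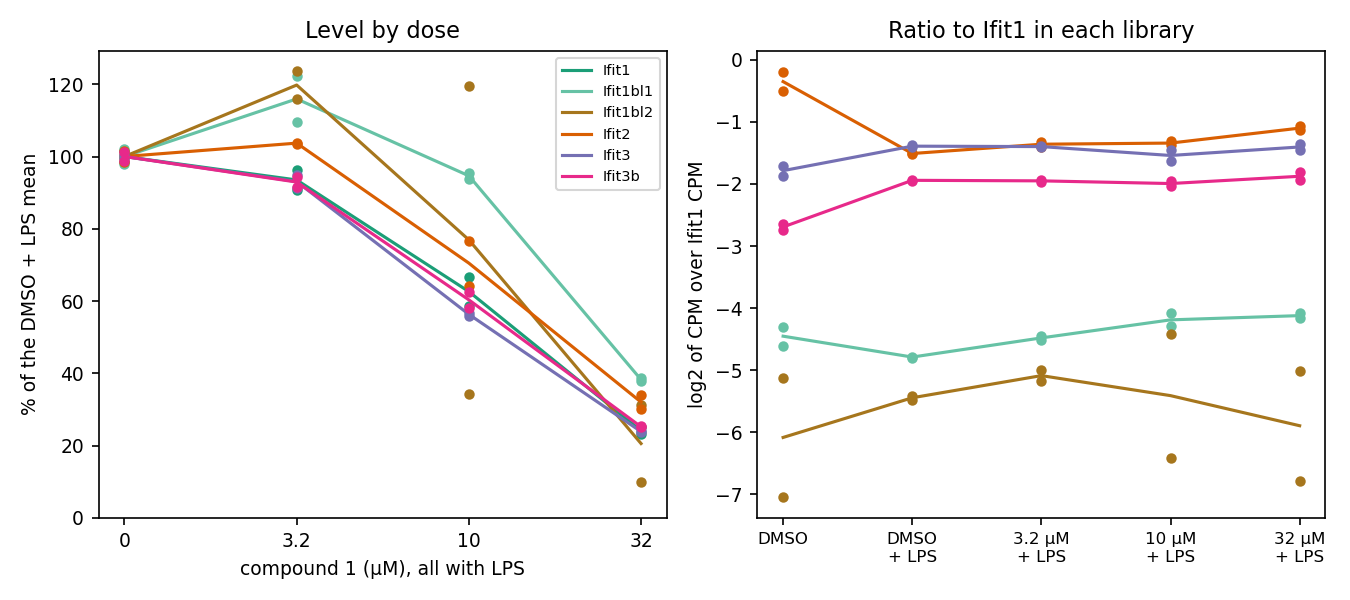
The left panel plots each IFIT gene as % of its DMSO + LPS mean against the dose of compound 1, with points for libraries and lines through means. The right panel plots the log2 ratio of each gene's CPM to that of Ifit1 in the same library, where Ifit1bl1 moves from −4.78 and −4.80 in DMSO + LPS to −4.08 and −4.16 at 32 µM.

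Ratios within a library leave out any scaling between libraries. The log2 ratio of Ifit3 to Ifit1 was −1.41 and −1.38 in DMSO + LPS and −1.36 and −1.45 at 32 µM, and that of Ifit3b to Ifit1 went from −1.95 and −1.93 to −1.81 and −1.94. Those of Ifit2 to Ifit1 moved from −1.51 in both libraries to −1.13 and −1.07. In resting cells the Ifit2 ratio was −0.51 and −0.20, so that relative to Ifit1 it was highest in DMSO, lowest in DMSO + LPS and in between at 32 µM. These ratios are a description and were not tested.

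The copies in the cluster limit how far single members can be separated. The transcripts of Ifit3 and Ifit3b were 98.0% identical over 1697 aligned bases, and 18.5% of the 150-base windows of Ifit3 (the read length) occurred exactly in Ifit3b. Ifit1bl1 and Ifit1bl2 were 90.5% identical over 2165 bases but shared none of these windows. Ifit1 and Ifit1bl2 shared 31 windows, 1.24% of those of Ifit1 and 0.963% of those of Ifit1bl2, while Ifit1 was at 377 CPM and Ifit1bl2 at 8.66 CPM in DMSO + LPS (means of 2 libraries). Whether reads of Ifit1 were counted to Ifit1bl2 was not tested. Ifit2 shared no window with any member. How reads with several hits were counted is not given in the sources used here. With Ifit3 and Ifit3b summed, and Ifit1, Ifit1bl1 and Ifit1bl2 summed, both sums were called lower at 32 µM (log2 fold change −2.03 for the Ifit1 sum and −2.04 for the Ifit3 sum) and at 10 µM (−0.64 and −0.79). Ifit1 held between 90.4% and 94.5% of the counts of its sum in the 10 libraries.

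Ifit1bl2 was the member whose replicates disagreed. The log2 ratio of replicate 1 to replicate 2 in CPM was 2.01 in DMSO, 1.80 at 10 µM and 1.64 at 32 µM, but −0.01 in DMSO + LPS and 0.09 at 3.2 µM. With 0.1 CPM added to each value, among 1778 genes with a mean level within 2-fold of its own, 2.19% differed as much between the replicates at 10 µM and 2.36% at 32 µM. The other 5 members differed by at most 0.26 in any condition. Across genes, replicate differences correlated at 0.80 to 0.85 among DMSO, 10 and 32 µM, and less in every other pair of conditions. What sets these libraries apart was not tested.

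Genes of the interferon pathway were set beside the family by lists that were chosen with earlier results of these data known, so their counts are a description. Over all genes, 14.6% were called higher and 13.6% lower with LPS. Called lower were 2.91% at 32 µM, 0.579% at 10 µM and 0% at 3.2 µM. On the route to interferon (Tlr4, Ticam1, Ticam2, Tbk1, Irf3, Ifnb1), 2 of 6 genes rose with LPS, 2 fell, and 1 was called lower at 32 µM. That gene was Ifnb1, which encodes interferon beta. It was at 1.05 and 1.23 CPM in DMSO + LPS and 0.245 and 0.243 CPM at 32 µM (log2 fold change −2.21, SE 0.30, edgeR adjusted p = 0.0024), and 0.068 and 0.106 CPM at rest. Among the receptor chains and kinases (Ifnar1, Ifnar2, Jak1, Tyk2), Tyk2 rose with LPS and 0 of 4 were called at 32 µM (median 0.06).

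Of 4 transcription factors (Stat2, Irf9, Irf7, Irf1), 3 rose with LPS and 2 fell at 32 µM. Stat2 and Irf7 (an interferon-induced factor that amplifies interferon transcription) had log2 fold changes of −1.45 and −1.48. Irf9, the DNA-binding partner of STAT2, was at 133 CPM in both DMSO + LPS libraries and at 109 and 111 CPM at 32 µM, a log2 fold change of −0.28. Irf1 was at −0.41. Stat2 was the 1 factor called at 10 µM (log2 fold change −0.65, edgeR adjusted p = 0.001), against 0.579% of all genes, with Irf7 at −0.55.

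All 3 brakes rose with LPS. Usp18, which blocks signalling at the interferon receptor, fell at 32 µM (log2 fold change −1.40), while Socs3, the inhibitor that rose most with LPS (log2 fold change 6.74), had one of −0.30 and was not called. Socs1, the third, was at −0.55 (edgeR adjusted p = 0.015), under the 1.5-fold cutoff. All 4 RNA sensors (Ddx58, Ifih1, Dhx58, Eif2ak2) rose with LPS and fell at 32 µM (median −1.28). All 13 other induced effectors, listed because they are known to be induced, rose with LPS (median 3.58) and fell at 32 µM (median −1.51). They lay between Zbp1, a sensor of Z-form nucleic acid (−2.14), and Oas2, which makes the activator of RNase L (−0.75). At 10 µM, 4 of the 13 were called lower (Rsad2, Mx2, Cmpk2 and Zbp1), against 0.579% of all genes. At 3.2 µM no gene of any list was called, nor was any other gene.

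A few genes for the processes that IFIT proteins act on were listed too, and none of these was called lower by compound 1. Of the 5 genes of cap formation (Rngtt, Rnmt, Ramac, Cmtr1, Cmtr2), 1 fell with LPS (Ramac, log2 fold change −0.60) and 0 were called at any dose against DMSO + LPS. Cmtr1, a cap ribose methyltransferase, was at only 0.803 and 1.30 CPM with LPS. Of 4 of the eIF3 subunits (Eif3a, Eif3c, Eif3e, Eif3h; the others were not listed), 0 were called with LPS or at any dose against DMSO + LPS, and their median log2 fold change was 0.05 at 32 µM.

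**Figure D5:**
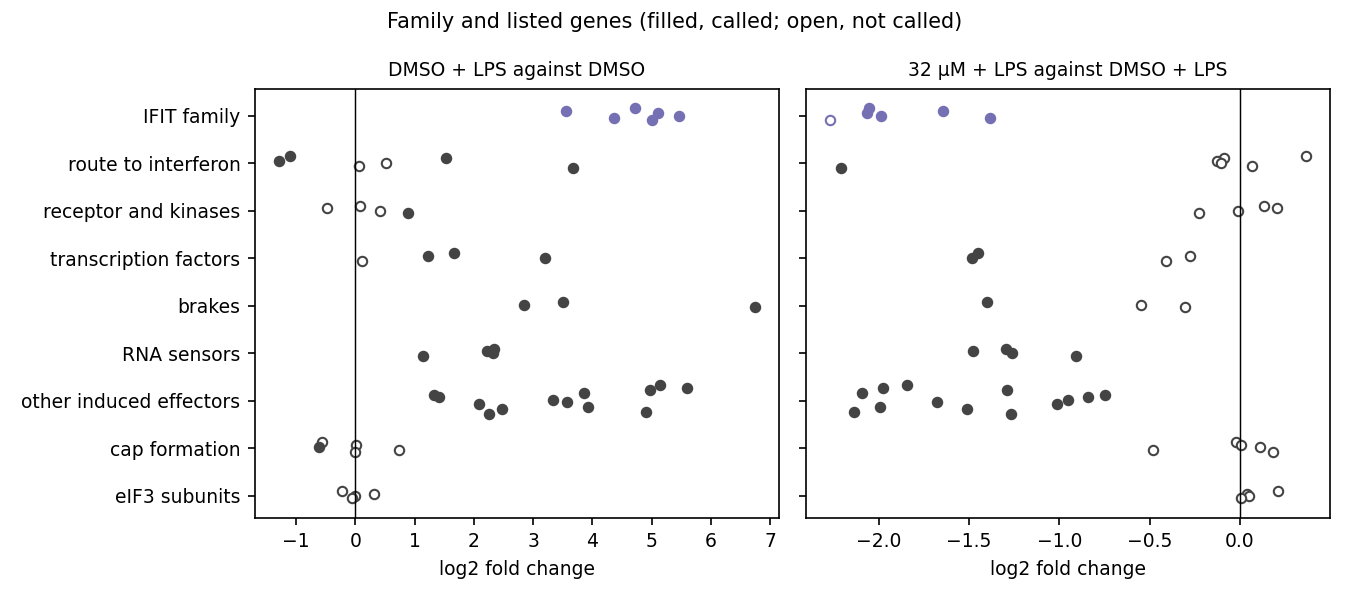
Points are fitted log2 fold changes of the IFIT genes and of the listed genes, by list, with LPS (left) and with 32 µM of compound 1 under LPS (right), filled where called and open where not. All 13 other induced effectors and all 4 RNA sensors are negative at 32 µM, while none of the cap formation and eIF3 points is filled in that panel.

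The motif shown above was looked for in the same way in other genes. Of 10060 tested genes with a RefSeq promoter, members left out, 3.88% had at least 1 match, of the 1484 called higher with LPS 113 (7.61%) had one, and of the 255 genes called higher with LPS and lower at 32 µM, 60 (23.5%) had one. Among the effectors listed above, 5 of the 9 with a promoter in the table had one, and among the family 5 of 6. These shares are descriptions and were not tested.

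The genes around the cluster were examined next. Of the 7 tested genes that start within 300 kb, 3 rose with LPS (Fas, Acta2 and the noncoding Gm26902) and 3 fell (Slc16a12, Pank1 and Kif20b), against 14.6% and 13.6% of all genes. None of the 7 was called lower at 32 µM, where Gm26902, at a mean of 0.281 CPM in DMSO + LPS, had a log2 fold change of −2.67 (edgeR adjusted p = 0.052). Fas, the death receptor, rose from 2.11 and 2.57 to 33.8 and 35.5 CPM with LPS and stood at 26.3 and 26.9 CPM at 32 µM (log2 fold change −0.38, under the 1.5-fold cutoff). Lipa, the lysosomal acid lipase gene next to Ifit2, was called higher at 32 µM, as were 1.27% of all genes (log2 fold change 0.82, SE 0.039, edgeR adjusted p = 9.42e-06), as was Slc16a12, a transporter gene next to Ifit1 (0.91, SE 0.14, edgeR adjusted p = 0.00423).

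The genes whose profile lay nearest to the median profile of the family were found by Euclidean distance of centred log2 CPM over the 10 libraries, among 9549 genes. They were Zbp1 (distance 0.258), Gm43302 (0.297), Isg15 (0.602), Gbp2b (0.655), Ccrl2 (0.736) and Ccl2 (0.739). Ifit1 and Ifit3 themselves lay at 0.305 and 0.32 and Ifit3b at 0.755, while Ifit2 was at 1.52 and Ifit1bl2 at 2.45. Isg15 encodes a ubiquitin-like modifier and Gbp2b a guanylate-binding protein, both interferon-induced, and Ccl2 a monocyte chemokine. The distance says nothing of shared function or control.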

How the data were processed

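RNA from RAW264.7 cells was sequenced after poly(A) selection and directional library preparation. The authors deposited raw counts per Ensembl gene, 1 column per library. Trimmomatic, FastQC, STAR, DESeq2 and mm10 are named in the submitters' processing notes. The counting tool, its strand setting and its treatment of reads with several hits are not given in the sources used here. GENCODE M21 gave symbols for 42462 of 43432 identifiers. Genes were filtered (filterByExpr, minimum count 10) and tested with edgeR 4.0.16 (TMM scaling, quasi-likelihood test, 1 mean per condition over all 10 libraries, Benjamini-Hochberg over 14172 genes). A gene was called at 1.5-fold and adjusted p below 0.05. With 2 libraries a condition, an exact permutation test of 2 against 2 could not go below 0.333. CPM used TMM-scaled library sizes. Named genes were the members, fixed pathway lists, chromosomal neighbours within 300 kb and the 6 nearest profiles. One gene of the pathway lists is not reported here. Members and lists were chosen with earlier results of these data known. The labels give a replicate number per library, but nothing says how the cultures were separated, so p-values measure the spread between these libraries. Alternatives were other scalings, no filter, DESeq2 1.42.0, a replicate block, the 4 compared libraries alone, summed copies and each library left out. Scripts were tested on simulated data.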

Additional observations from a re-analysis of the deposited data

How the results depend on the processing

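Every member kept its direction and its call for LPS against DMSO under 13 alternatives for Ifit2, 12 for Ifit1, Ifit3, Ifit3b and Ifit1bl1, and 11 for Ifit1bl2, where the one without replicate 2 of DMSO, 10 µM and 32 µM is not counted. At 32 µM against DMSO + LPS, the 5 called members were called under each alternative, and Ifit1bl2 was called under 3 of 11. Summing near-identical members gives values of 2 sums and none of a single copy, so no member but Ifit2 is counted under it. The number lower at 32 than at 10 µM was 1 with edgeR on the 4 libraries compared, and that lower at 10 than at 3.2 µM was 0 with that setting, 0 without replicate 1 at 10 µM and at 3.2 µM, 4 without replicate 2 of DMSO, 10 µM and 32 µM (both added after seeing the data, and leaving 1 library in a condition that is assumed to vary like the others), and between 1 and 4 with single libraries left out. The cause of these changes was not tested. Direction changed for Ifit1bl2 at 10 µM with single libraries left out (−1.55 to 0.24, the latter without replicate 2 at that dose) and without replicate 2 of DMSO, 10 µM and 32 µM (0.23). The latter takes out the libraries in which Ifit1bl2 was low and is no test of that gene. Replicate differences correlated across genes at 0.80 to 0.85 among DMSO, 10 and 32 µM, and at 0.39 to 0.50 between these and 3.2 µM. In the 4 pairs with DMSO + LPS they correlated at −0.43 to −0.21, so the numbers do not pair all libraries. With the replicate block, 6 members were called lower at 32 µM, where the log2 fold change of Ifit1bl2 was −2.43, and 3 at 10 µM. In the dose trend, Ifit1, Ifit3 and Ifit3b fell at the smallest p with library size alone. With 1 library left out the smallest p was 0.00317, which these 3 had to reach since their 8 libraries were fully ordered, and their adjusted p was then between 0.056 and 0.0652. Across all genes, 82 were called lower at 10 µM, 29 without replicate 1 at 10 µM and at 3.2 µM and 248 without replicate 2 of DMSO, 10 µM and 32 µM. The counts ranged over the alternatives from 0 to 18 at 3.2 µM (0 in the fit reported), from 5 to 452 between 32 and 10 µM (163) and from 0 to 114 between 10 and 3.2 µM (26). Among the members, depth limits Ifit1bl2 in DMSO most, with 6 counts in 1 library.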
